A study of Rattus norvegicus with 12 samples.

Results

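The genes described here encode the muscle side of the nerve-muscle synapse: the subunits of the muscle nicotinic acetylcholine receptor (*Chrna1*, *Chrnb1*, *Chrnd*, *Chrng*, *Chrne*), the proteins that gather the receptor under the nerve ending (*Musk*, *Lrp4*, *Dok7*, *Rapsn*) and the enzyme that ends the signal (*Ache*). They were taken as the probes whose RefSeq accession, version ignored, maps to these 10 rat symbols, out of 16581 genes named on the arrays. Each gene had 1 probe, and all 10 were among the probes tested. All samples were myotubes, the fused form of the rat muscle line L6, differentiated for 6 days per the labels (the paper's methods give a later day for GR24) and then treated for 24 h. The 4 groups were DMSO alone (control) and 60 µM of GR24, pinosylvin or resveratrol in DMSO, with 3 arrays each. GR24 is a synthetic strigolactone analog, and pinosylvin and resveratrol are plant stilbenes that differ by a hydroxyl group, which resveratrol carries on the ring that pinosylvin leaves unsubstituted.

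The muscle receptor is a pentamer that contains the alpha, beta and delta subunits together with either the gamma subunit (*Chrng*), typical of fetal and denervated muscle, or the epsilon subunit (*Chrne*), typical of the adult synapse. Agrin released by the nerve binds Lrp4, which activates the kinase MuSK. Dok7 is the adaptor that MuSK needs, and rapsyn (*Rapsn*) anchors receptors in clusters. Cultured myotubes make the receptor without a nerve, and myogenic factors such as myogenin are known to drive its genes through E-box sequences.

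The measurement was the brightness of a Cy3-labelled probe, on a log2 scale where each array's 75th percentile is 0. Levels of different genes are not compared. On each array 58.0% to 64.3% of 58717 spots passed as well above background, with 0 saturated spots. Testing was limited to probes detected well above background throughout 1 group or more, 24279 of 45598. Of the 10 genes, 9 were well above background on all 12 arrays. The exception was *Chrne*, which was not on GR24 replicate 2 and whose spot was 1.99 to 3.27 times its local background. The *Chrng* spot was 492 to 1355 times its local background. Differences were tested with limma in 1 fit of all 12 arrays, and a difference was called at a Benjamini-Hochberg adjusted p under 0.05 over all tested probes of that contrast. Slide 1 held replicates 1 and 2 of each group, slide 2 held replicate 3, and each slide was scanned on its own. The contrasts with the control share its 3 arrays, and the p-values measure the spread between these samples.

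The labelled cell type was checked against its markers. Of 11 myotube markers, 9 had a probe, and all 9 were well above background on all 12 arrays. The 9 signals summed to 742 to 856 in the control, 829 to 892 with pinosylvin, 611 to 653 with resveratrol and 296 to 314 with GR24, in units of the 75th percentile of the array. The summed marker signal was thus lowest with GR24 on every array. In cultures of this kind, fewer myotubes and less RNA of a gene per myotube cannot be told apart.

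GR24 lowered most of the receptor and junction genes. Of the 10 genes, 8 were lower than in the control and 0 were higher, while among all tested probes 25.5% were lower and 31.5% higher. The median log2 difference of the 10 genes was -0.95, beside 0.03 over all tested probes. Within slide 1 the median was -1.06 and all 10 differences were negative, and on slide 2 it was -0.72 with 9 negative. With the slide as a block 9 of the 10 were lower, in a fit that called 66.6% of all probes in either direction.

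Rapsyn showed the largest difference of the 10 from the control. The log2 intensities of *Rapsn* were 1.79, 1.70 and 1.60 in the control and 0.34, 0.24 and 0.17 with GR24. The groups did not overlap, and *Rapsn* was 2.73-fold lower with GR24, a log2 difference of -1.45 (SE 0.11, adjusted p = 1.28e-06, limma). *Dok7* was at 1.74, 1.91 and 1.68 in the control and 0.53, 0.56 and 0.58 with GR24. This was a 2.33-fold decrease, again with no overlap, and the 3 GR24 arrays lay close together (SD 0.026). *Musk* fell less, from a mean of -1.41 ± 0.25 to -2.17 ± 0.18 (SD, n = 3 each), a log2 difference of -0.76 (SE 0.15, adjusted p = 0.0012). *Lrp4*, the agrin receptor, changed least of the 5 genes outside the receptor, with a log2 difference of -0.38 (SE 0.083, adjusted p = 0.00274). *Ache* was at -1.14, -1.20 and -1.40 in the control and -2.51, -2.43 and -2.47 with GR24, which is 2.33-fold lower (log2 difference -1.22, SE 0.11, adjusted p = 5.39e-06).

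**Figure D1:**
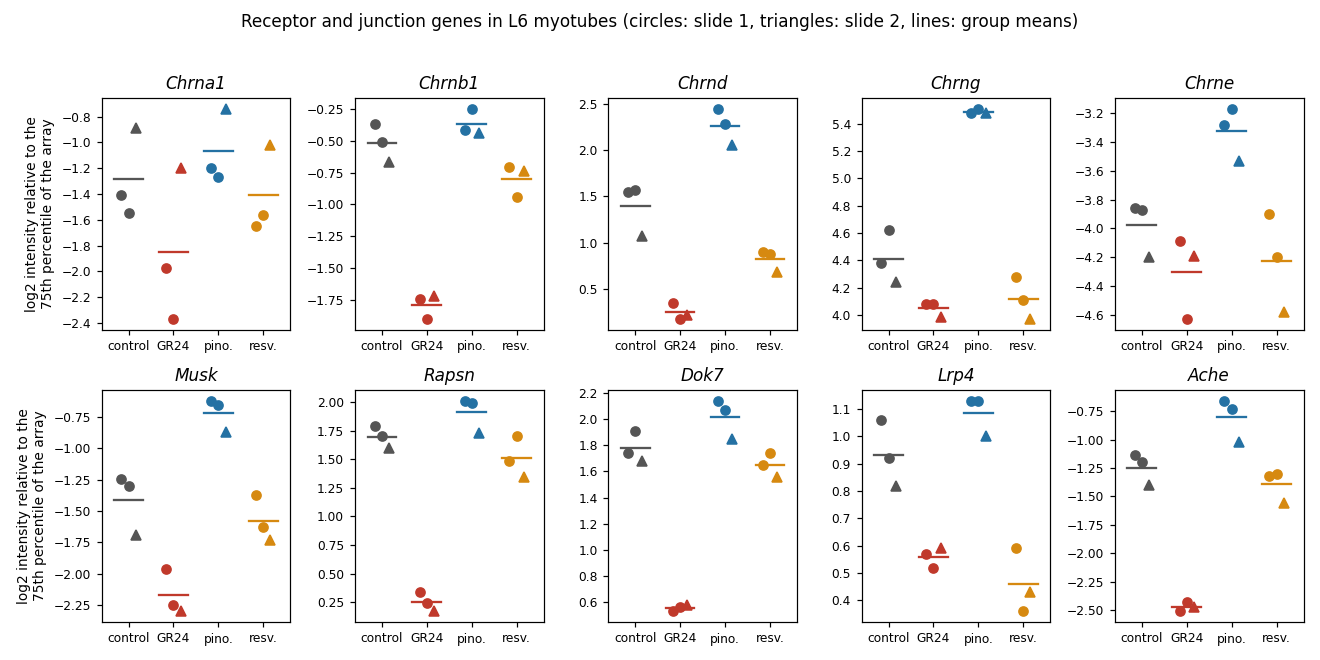
Log2 intensity of each of the 10 genes, relative to the 75th percentile of the array, on the 12 arrays, by treatment (pino., pinosylvin; resv., resveratrol). Circles are arrays of slide 1, triangles arrays of slide 2 and lines group means (n = 3); each panel has its own scale, and the 3 pinosylvin values of *Chrng*, 5.48 to 5.51, lie above all its others.

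The receptor subunits were read separately. *Chrnb1*, the beta subunit, was at -0.37, -0.51 and -0.67 in the control and -1.74, -1.90 and -1.72 with GR24, and was 2.41-fold lower (log2 difference -1.27, SE 0.10, adjusted p = 1.77e-06). *Chrnd*, the delta subunit, was at 1.55, 1.57 and 1.07 in the control and 0.35, 0.17 and 0.22 with GR24, and was 2.22-fold lower (log2 difference -1.15, SE 0.14, adjusted p = 5.91e-05). In both genes the lowest control array lay above the highest GR24 array. *Chrng*, the fetal gamma subunit, was at 4.38, 4.62 and 4.24 in the control and 4.08, 4.08 and 3.99 with GR24, a decrease of 1.29-fold (log2 difference -0.37, SE 0.10, adjusted p = 0.0116). Between control and GR24, *Chrng* changed by 0.78 less than *Chrnd* on the log2 scale within the arrays, and by 0.91 less than *Chrnb1*. In a 2-sided exact permutation test of 3 against 3 arrays both gave p = 0.1, the smallest this design can give, so neither could have passed 0.05. The pairs were chosen after their values were seen and the test leaves out the replicate numbers, so a difference between the subunits was not shown by a test.

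Neither *Chrna1* nor *Chrne* passed the threshold with GR24. *Chrna1*, the alpha subunit that carries most of the acetylcholine site, was at -1.41, -1.55 and -0.89 in the control and -1.97, -2.37 and -1.20 with GR24. In every group the array on slide 2 was the highest for this gene, and the groups overlapped. The log2 difference was -0.56 (95% interval -1.23 to 0.10, adjusted p = 0.138). With the replicate number as a block the adjusted p was 0.00256, with the slide as a block 0.00236, and within slide 1 the difference was -0.69 (adjusted p = 0.00511). Without GR24 replicate 3 it was -0.89 (adjusted p = 0.0159), and over all alternatives the adjusted p ranged from 0.00236 to 0.44. *Chrne* had a log2 difference of -0.33 (95% interval -0.76 to 0.10, adjusted p = 0.18), which was -0.50 on slide 1 and 0.01 on slide 2.

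Pinosylvin raised some of the receptor genes. Of the 10 genes, 5 were higher than in the control and 0 were lower, where 8.28% of all tested probes were higher and 8.27% lower. The 5 were *Chrng*, *Chrnd*, *Musk*, *Chrne* and *Ache*, that is 3 of the 5 receptor subunits and 2 of the 5 other genes. All 10 differences were positive on both slides, with a median of 0.38 on slide 1 and 0.30 on slide 2, beside 0.05 over all tested probes in the pooled fit. With the slide as a block 7 of the 10 were higher, in a fit that called 29.1% of all probes.

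*Chrng* rose most. Its log2 intensities with pinosylvin were 5.48, 5.51 and 5.48, all above the highest control array, a 2.11-fold increase (log2 difference 1.08, SE 0.10, adjusted p = 6.29e-05). *Chrnd* was at 2.45, 2.29 and 2.06 and *Musk* at -0.62, -0.65 and -0.87, which also lay above all their control arrays. *Chrnd* was 1.83-fold higher (log2 difference 0.87, SE 0.14, adjusted p = 0.00238), and *Musk* 1.62-fold (0.70, SE 0.15, adjusted p = 0.00918). *Ache* was 1.36-fold higher (0.44, SE 0.11, adjusted p = 0.0221). This call was lost without control replicate 3 (adjusted p = 0.0768), without pinosylvin replicate 1 (0.0849) or 2 (0.0807), with quantile normalization (0.0511) and under 3 other alternatives, over a range of 0.00146 to 0.0849.

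*Chrne*, the adult subunit, was at -3.28, -3.17 and -3.53 with pinosylvin and -3.86, -3.87 and -4.20 in the control. The groups did not overlap, and the log2 difference of 0.65 (SE 0.19) had an adjusted p of 0.0465. Its size depended on the background correction for this dim probe, and after normexp correction with 75th percentile scaling it was 0.31 (adjusted p = 0.137). The call was lost under 12 alternatives, and without each control array, pinosylvin replicate 1 or pinosylvin replicate 2 the adjusted p was 0.0782, 0.0707, 0.143, 0.121 and 0.148, in a range of 0.0185 to 0.148. The remaining genes, *Chrna1*, *Chrnb1*, *Rapsn*, *Dok7* and *Lrp4*, had differences of 0.15 to 0.24. For *Dok7* (0.24, 95% interval 0.04 to 0.44, adjusted p = 0.101) the adjusted p was 0.0361 with the replicate number as a block, 0.0302 with the slide and 0.0356 without pinosylvin replicate 3, in a range of 0.0302 to 0.291. For *Rapsn* (0.21, 95% interval -0.03 to 0.45, adjusted p = 0.228) it was 0.0435 with the slide as a block, in a range of 0.0435 to 0.478.

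Resveratrol changed few of these genes. Of the 10 genes, 2 were lower than in the control and 0 were higher, where 8.99% of all tested probes were lower and 7.99% higher. All 10 differences were negative on both slides, with a median of -0.21 on each, and the slide block gave 3 lower genes in a fit that called 28.3% of all probes. *Lrp4* was at 1.06, 0.92 and 0.82 in the control and 0.59, 0.36 and 0.43 with resveratrol. These did not overlap, and the gene was 1.39-fold lower (log2 difference -0.47, SE 0.083, adjusted p = 0.00318). *Chrnd* was at 0.90, 0.88 and 0.68 with resveratrol, all below the lowest control array, and 1.49-fold lower than the control (-0.58, SE 0.14, adjusted p = 0.0207). Without control replicate 1 its adjusted p was 0.0799, without control replicate 2 it was 0.0786 and without resveratrol replicate 3 it was 0.0748. It was 0.0606 with no filter on dim probes and 0.0617 with only the arrays compared, in a range of 0.00164 to 0.0799.

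*Chrng* and *Chrnb1* came near the threshold with resveratrol. *Chrng* had a log2 difference of -0.30 (95% interval -0.53 to -0.06, adjusted p = 0.0822), with an adjusted p of 0.0324 with the replicate number as a block, 0.0227 with the slide and 0.0356 without control replicate 3. It passed in 9 alternatives, in a range of 0.0227 to 0.251. *Chrnb1* had -0.28 (95% interval -0.50 to -0.06, adjusted p = 0.0844), with 0.0442 without control replicate 3 and a range of 0.0442 to 0.271. The other 6 genes had differences of -0.25 to -0.12. The widest of their intervals was that of *Chrna1*, -0.80 to 0.54.

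The comparison of the stilbenes asks whether compounds that differ by the hydroxyl group gave different levels at the same dose and time. They did for 9 of the 10 genes, all higher with pinosylvin and 0 lower, where 7.68% of all tested probes were higher and 6.85% lower. The median difference of the 10 genes was 0.61, beside 0.02 over all tested probes, and was 0.64 on slide 1 and 0.56 on slide 2. The slide block, which called 26.5% of all probes, also gave 9.

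The delta and gamma subunits differed most between the stilbenes. *Chrnd* was 2.73-fold higher with pinosylvin than with resveratrol (log2 difference 1.45, 95% interval 1.13 to 1.77, adjusted p = 0.000141), and *Chrng* 2.59-fold (1.37, 95% interval 1.14 to 1.60, adjusted p = 3.32e-05). No array of one stilbene overlapped the other for either gene. *Chrne* followed with 0.90 (95% interval 0.47 to 1.33), *Musk* with 0.86 (0.54 to 1.19), *Lrp4* with 0.63 (0.44 to 0.81) and *Ache* with 0.59 (0.34 to 0.84). *Chrnb1*, *Rapsn* and *Dok7* differed least among the genes called, by 0.43, 0.40 and 0.36, and *Chrna1* did not pass (0.34, 95% interval -0.33 to 1.01, adjusted p = 0.526).

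Some of these calls were lost when an array was left out. Without pinosylvin replicate 2 only 5 of the 10 genes were called, in a fit that called 8.85% of all probes where 14.5% were called with it, and the adjusted p was 0.0744 for *Chrnb1*, 0.0522 for *Chrne*, 0.117 for *Rapsn* and 0.0871 for *Dok7*. In that fit the differences of *Chrnb1*, *Chrne*, *Rapsn* and *Dok7* were 0.37, 0.82, 0.36 and 0.34. With all arrays they were 0.43, 0.90, 0.40 and 0.36. *Chrnb1* was also lost without resveratrol replicate 2 (adjusted p = 0.071). *Rapsn* and *Dok7* were lost without pinosylvin replicate 1 (0.107 and 0.0838), resveratrol replicate 1 (0.0878 and 0.0622) or resveratrol replicate 3 (0.117 and 0.0867). With no filter on dim probes the adjusted p was 0.0634 for *Chrnb1*, 0.104 for *Rapsn* and 0.0851 for *Dok7*. Over all alternatives it ranged from 0.00642 to 0.0744 for *Chrnb1*, 0.00413 to 0.0744 for *Chrne*, 0.00268 to 0.117 for *Rapsn* and 0.00534 to 0.0871 for *Dok7*. The difference for *Chrne* was 0.53 in the deposited table (adjusted p = 0.0744) and 0.35 with normexp and quantile normalization (0.0571).

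**Figure D2:**
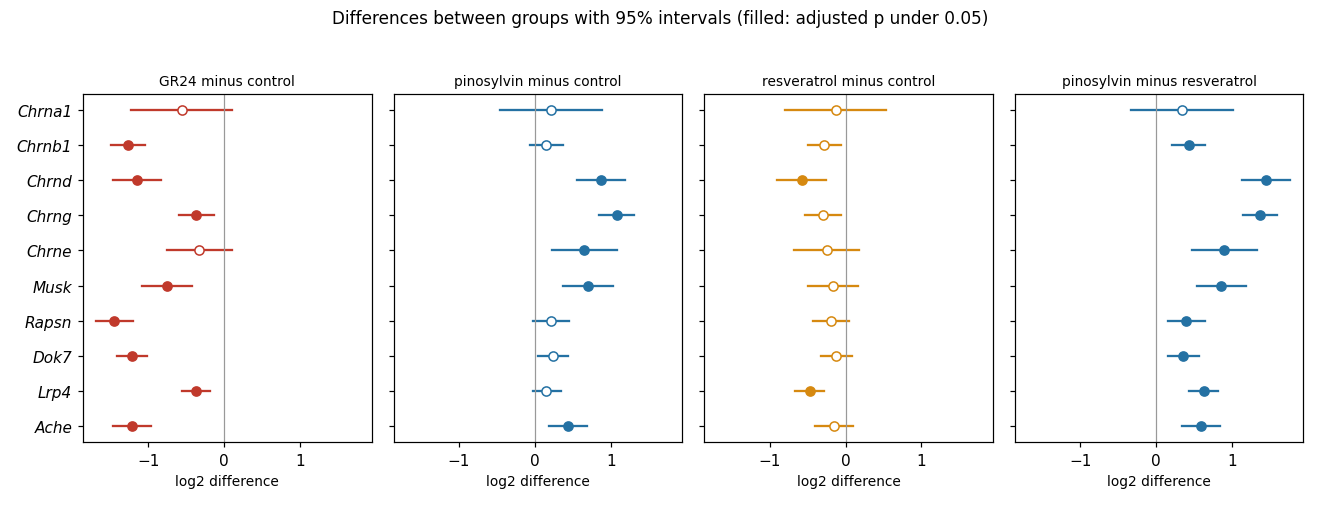
Log2 differences of the 10 genes between groups (x axis), with 95% intervals from limma that are not adjusted for the number of genes (n = 3 arrays a group). Filled points have an adjusted p under 0.05; the differences between GR24 and the control run from -1.45 to -0.33 and those between the stilbenes from 0.34 to 1.45.

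GR24 was also set against each stilbene. Against pinosylvin, 10 of the 10 genes were lower with GR24 and 0 higher (26.8% of all tested probes were lower and 29.6% higher), from -2.02 for *Chrnd* (SE 0.14, adjusted p = 1.06e-06) to -0.53 for *Lrp4*. The *Chrna1* call there (-0.78, adjusted p = 0.0482) was lost in 10 alternatives, among them the fits without GR24 replicate 1 (0.121) or 2 (0.184) or without pinosylvin replicate 1 (0.0724), 2 (0.059) or 3 (0.156), in a range of 0.000325 to 0.184. Against resveratrol, 6 of the 10 were lower and 0 higher (23.9% of all tested probes were lower and 27.4% higher). These were *Rapsn* (-1.26), *Dok7* (-1.10), *Ache* (-1.07), *Chrnb1* (-0.99), *Musk* (-0.59) and *Chrnd* (-0.57). *Chrng* (-0.07, 95% interval -0.30 to 0.16), *Chrne* (-0.08, -0.51 to 0.36) and *Lrp4* (0.10, -0.09 to 0.28) did not pass. For *Chrna1* (-0.44, adjusted p = 0.262) the adjusted p was 0.011 with the replicate number as a block and also with the slide, and 0.0353 without GR24 replicate 3, in a range of 0.011 to 0.683. The slide block, which called 66.7% of all probes against pinosylvin and 61.3% against resveratrol, gave 10 and 7 lower genes.

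In the order of the group means, pinosylvin was highest for all 10 genes, followed by the control and then resveratrol in all 10 and by GR24 last in 9. For *Chrng* and *Chrne* the last step, -0.07 and -0.08, was not past the threshold and changed sign in 5 alternatives each. In *Lrp4* resveratrol was lowest, at 0.46 ± 0.12 beside 0.56 ± 0.036 with GR24 (SD, n = 3 each), and these did not differ past the threshold. *Chrnd* was the gene in which each of the 3 steps of this order was called: pinosylvin 2.27 ± 0.20, control 1.40 ± 0.28, resveratrol 0.82 ± 0.12 and GR24 0.25 ± 0.094 (SD, n = 3 each). In *Rapsn*, *Dok7* and *Chrnb1* only the step down to GR24 was called, and in *Ache* and *Musk* the steps from pinosylvin to the control and from resveratrol to GR24 were.

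Genes of the agrin and neuregulin pathways were read next. Of 21 listed genes 18 were tested, and with GR24 8 were higher and 7 lower, with a median of 0.07, where 31.5% of all tested probes were higher and 25.5% lower. Other probes change this count, since *Cttn* (-0.06) and *Ptpn11* (-0.18) were higher at another probe (0.62 and 0.52) and *Abl1* (0.29) did not pass at another (0.33). *Dnaja3*, a cochaperone that binds MuSK, was higher by 1.12 on the log2 scale (SE 0.089, adjusted p = 1.99e-06). *Macf1*, a cytoskeletal linker that binds rapsyn (-1.34), *Erbb3*, a neuregulin receptor (-0.83), the kinase *Pak1* (-0.68) and agrin itself (*Agrn*, -0.47) were lower. With pinosylvin *Fyn*, *Dnaja3* and *Pak1* were higher (0.56, 0.34 and 0.29) and 0 genes lower. Among all tested probes 8.28% were higher and 8.27% lower with pinosylvin. With resveratrol *Etv5*, an Ets factor of synaptic nuclei, was higher (0.45), and *Erbb3* (-0.89), *Pak1* (-0.34) and *Erbb2* (-0.30) were lower. In that contrast 7.99% of all tested probes were higher and 8.99% lower. Between the stilbenes *Erbb3* (0.79), *Fyn* (0.74) and *Pak1* (0.63) were higher with pinosylvin and *Etv5* was lower (-0.55). Of all tested probes, 7.68% were higher and 6.85% lower there.

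Among 11 tested genes of the synaptic basal lamina and postsynaptic scaffold, of 18 listed, 7 were lower with GR24 and 1 higher (median -0.38; all tested probes, 25.5% lower and 31.5% higher). The 7 include *Dag1* (-0.27), whose 2 other probes did not pass (-0.06 and -0.17). *Sntb2*, a syntrophin, was higher by 1.47 (SE 0.11, adjusted p = 1.26e-06), while *Sntb1*, another syntrophin, was lower (-1.16, SE 0.13). *Nid2*, a basal lamina nidogen, was lower (-1.02), as was *Lamb2*, a laminin chain of the synapse (-0.44). *Col13a1*, a muscle collagen of the synapse, was not well above background on any GR24 array and was at least 2.25-fold higher in the control. It was tested only because all 3 control arrays were well above background, so this difference is tied to the filter. For such a bound the dim probe was set, on each array, to its own signal or to the lowest signal called well above background, whichever was higher. With pinosylvin only *Sntb1* passed (0.44), where 8.28% of all tested probes were higher. With resveratrol only *Utrn* passed (-0.44), where 8.99% of all tested probes were lower. The 2 other probes of *Utrn* were not past the threshold, with differences of -0.45 and -0.35. Between the stilbenes only *Sntb1* passed (0.49; 7.68% of all tested probes were higher).

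*Colq*, the collagen tail that holds acetylcholinesterase in the basal lamina, was also not well above background on any GR24 array. It was tested only because all arrays of the other groups were well above background, so its differences from GR24 are tied to the filter. It was at least 4.09-fold higher in the control (adjusted p = 3.15e-06), at least 4.29-fold higher with pinosylvin and at least 2.85-fold higher with resveratrol than with GR24. Against the control it did not pass the threshold with pinosylvin (0.07) or resveratrol (-0.52). *Prima1*, the membrane anchor of the enzyme, passed in none of these contrasts.

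Of 11 listed genes of receptor assembly and turnover 9 were tested. With GR24 *Prkaca*, a protein kinase A catalytic subunit (-0.83), *Trim63*, a ubiquitin ligase (-0.40), and the chaperone *Hspa5* (-0.25) were lower. The motor *Myo5a* (0.53) and the endosomal *Rab5a* (0.46) were higher. Among all tested probes 25.5% were lower and 31.5% higher. *Canx* and *Prkar1a* (-0.01 each) did not pass with GR24 but were lower at another probe (-0.34 and -0.33). With pinosylvin *Hspa5* was higher (0.27), where 8.28% of all tested probes were higher. With resveratrol *Hspa5* was higher (0.31), and *Trim63* (-0.54), *Prkaca* (-0.37) and *Prkar1a* (-0.36) were lower, though another *Prkar1a* probe gave 0.01. In that contrast 7.99% of all tested probes were higher and 8.99% lower. Between the stilbenes *Trim63* (0.67), *Prkar1a* (0.36, with 0.14 at the other probe) and *Prkaca* (0.27) were higher with pinosylvin. Of all tested probes, 7.68% were higher there. Of 11 listed nicotinic subunits outside the muscle receptor only *Chrnb4* was tested, at -0.22, 0.15 and 0.19 with GR24, pinosylvin and resveratrol, and it did not pass in any contrast. *Chrna7* was well above background on 1 array and the other 9 on 0.

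Transcriptional regulators of the receptor genes gave the widest range. Of 20 listed genes 16 were tested, and with GR24 8 were lower and 2 higher, where 25.5% of all tested probes were lower and 31.5% higher. *Myog*, which encodes myogenin, fell by 5.83 on the log2 scale (SE 0.15, adjusted p = 5.53e-10), with *Myf6* (-1.65, well above background on 2 of 3 GR24 arrays), the kinase *Sik1* (-1.57) and *Tcf4*, an E-protein (-1.29). *Myod1* was not well above background on any GR24 array and was at least 3.21-fold higher in the control. It was tested only through the control and pinosylvin groups, so its lower values with GR24 and resveratrol are tied to the filter. *Id2*, an inhibitor of E-proteins, was higher (1.22), as was *Hdac5* (0.34). With pinosylvin *Myog* was higher by 0.73 (SE 0.15, adjusted p = 0.00654), with *Tcf12* (0.45), *Runx1* (0.37), *Mef2d* (0.34) and *Hdac4* (0.23), where 8.28% of all tested probes were higher. *Myf6* (-0.84), *Id1* (-0.77), *Tcf4* (-0.44) and *Id2* (-0.33) were lower (8.27% of all tested probes). Other probes of *Tcf12*, *Hdac4* and *Mef2d* differed from those used in at least 1 contrast. With GR24 a second *Mef2d* probe gave 1.13 beside 0.01 and a second *Hdac4* probe 0.33 beside 0, both higher past the threshold. With pinosylvin the other probes of *Tcf12* (0.37) and *Hdac4* (0.08) did not pass. The counts with GR24 and pinosylvin thus depend on the probe. With resveratrol 5 genes were lower (8.99% of all tested probes): *Myod1* (-1.11, well above background on 2 of 3 resveratrol arrays), *Myf6* (-0.76), *Myog* (-0.51), *Tcf4* (-0.41) and *Tcf3* (-0.29). Between the stilbenes *Myog* was 1.24 higher with pinosylvin (SE 0.15, adjusted p = 0.000375), followed by *Myod1* (0.98), *Sik1* (0.92), *Tcf12* (0.57) and *Runx1* (0.46). *Id1* (-0.73) and *Id2* (-0.33) were lower, where 7.68% of all tested probes were higher and 6.85% lower.

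Of 6 tested genes of denervated or synaptic muscle membrane, 4 were lower with GR24 (25.5% of all tested probes), among them the cell adhesion gene *Ncam1* (-1.46), the calcium channel *Cacna1s* (-1.43) and *Vldlr* (-0.65, with -0.07 at another probe). The potassium channel *Kcnn3* was higher (0.54), where 31.5% of all tested probes were higher. With pinosylvin 5 of the 6 were higher (8.28% of all tested probes), from 0.40 for *Cacna1s* to 1.02 for *Gadd45a*. With resveratrol *Gadd45a* (0.63) and *Vldlr* (0.54) were higher (7.99% of all tested probes). Between the stilbenes *Cacna1s* (0.65) and *Kcnn3* (0.41) were higher with pinosylvin (7.68% of all tested probes), and *Vldlr* passed only at its other probe (0.36, beside 0.05).

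General markers of the myotube were tested in the same contrasts. With GR24 8 of the 9 were lower (25.5% of all tested probes), with a median of -2.44, and *Acta1*, skeletal alpha-actin, fell by 3.88 on the log2 scale. With pinosylvin *Myog* and *Tnnt3* (0.54) were higher and *Myh8* (-0.44) lower, where 8.28% of all tested probes were higher and 8.27% lower. With resveratrol 6 were lower (8.99% of all tested probes), the largest *Ckm*, muscle creatine kinase (-1.04). Between the stilbenes 8 of the 9 were higher with pinosylvin (7.68% of all tested probes), with a median of 0.40. The part of the general markers in the receptor genes' differences was not tested.

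The genes most like *Chrnd*, the subunit with the widest range of group means, were *Pycr1* (Pearson r = 0.99), *Tspan13* (0.989), *Ampd1* (0.986), *Aebp1* (0.985) and *Ttc23* (0.985), over 12 arrays. Those most like *Ache*, whose range of 1.66 *Rapsn* equals among the other genes, were *Myh6* (0.993), *Smarcd3* (0.992), *Cacna1s* (0.991), *Myh14* (0.991) and *Fxyd1* (0.991). These values describe arrays that share their groups and slides. *Ampd1*, muscle AMP deaminase, was at -0.99, 0.95 and -0.55 against the control with GR24, pinosylvin and resveratrol, and *Chrnd* at -1.15, 0.87 and -0.58. With GR24 *Pycr1*, *Tspan13*, *Aebp1* and *Ttc23* were at -0.3, -0.63, -0.71 and -0.58, so a high r did not mean differences of equal size. The genes were selected by r, and a like pattern follows from that selection.

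*Chrnd* and *Chrng*, the genes that differed most between the stilbenes, are neighbours on chromosome 9, with 0 other genes of the GRCr8 table starting between them. RefSeq promoter windows (GRCr8, 300 bases, 250 of them before the gene's start) were matched for 8 of the 10 genes, all but *Rapsn* and *Lrp4*. On both strands, the E-box CANNTG was in 8 of the 8 windows, beside 72.1% of all 33469 windows. Its form CAGCTG was in 5 (15.1% of all windows), and the N-box CCGGAA, known from synapse-specific genes, in 2 (15%), those of *Chrnd* and *Chrne*. A match of letters does not show that a factor binds there. The 250 bases before the start are shown for the 3 subunit genes that rose with pinosylvin, 5′ to 3′ on the gene's strand, with E-boxes and N-boxes in capitals, at chr9:95310066-95310315 (plus strand) for *Chrnd*, chr9:95325734-95325983 (plus strand) for *Chrng* and chr10:55834155-55834404 (minus strand) for *Chrne*.
Chrnd: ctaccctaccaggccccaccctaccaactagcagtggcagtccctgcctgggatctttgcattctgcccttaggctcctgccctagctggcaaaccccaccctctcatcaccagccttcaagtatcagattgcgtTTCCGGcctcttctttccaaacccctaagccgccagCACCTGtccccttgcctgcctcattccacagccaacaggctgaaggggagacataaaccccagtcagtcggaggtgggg
Chrng: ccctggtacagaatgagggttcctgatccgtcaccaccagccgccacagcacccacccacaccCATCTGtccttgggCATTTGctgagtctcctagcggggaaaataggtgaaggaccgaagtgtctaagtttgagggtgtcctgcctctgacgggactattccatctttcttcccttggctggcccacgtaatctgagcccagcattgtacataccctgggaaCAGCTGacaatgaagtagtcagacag
Chrne: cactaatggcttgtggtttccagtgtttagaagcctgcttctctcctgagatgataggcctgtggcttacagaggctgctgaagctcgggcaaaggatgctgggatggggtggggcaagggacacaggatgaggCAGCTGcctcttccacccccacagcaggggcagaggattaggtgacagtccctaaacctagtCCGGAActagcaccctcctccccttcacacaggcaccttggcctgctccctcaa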

How the data were processed

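Total RNA of 12 cultures was hybridised to 1-colour Agilent rat arrays. Per the file headers and processing notes, the authors deposited scanner intensity values from Agilent Feature Extraction 12.0.0.7 and a table of normalized log2 values (25848 probes, column medians 9.21 to 9.24), for which limma is named. Each column of that table correlated best with the log2 signal of its own array (r 0.992 to 0.995), so its scale is log2 and its direction that of the signal, while the steps of its normalization are not given in the sources used here. It served as an alternative. The methods describe independent experiments for GR24.

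Control spots were left out, spots marked as outliers were set to missing (0 of the values of the 10 genes), and spots of 1 probe were averaged. The 75th percentile over probes was then subtracted. A first version took the percentile over spots before averaging. It was replaced after its results were seen, because its counts differed from an earlier analysis of these data, and it is kept as an alternative. Probes were named through RefSeq accessions in the GRCr8 gene table (21109 of 45598), used for names and neighbours only. R 4.3.3 and limma 3.58.1 fitted 1 mean per group (lmFit, eBayes), with 6 contrasts and Benjamini-Hochberg adjustment within each. The fit was tested on simulated data. No 2 arrays held identical values (0 pairs).

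The members and lists were chosen with earlier results of these data known. Named genes were all members and, of each list, up to 5 per contrast with the largest difference past the threshold, with any needed to state a small count. *Dag1*, *Cttn*, *Ptpn11*, *Abl1* and *Canx*, named because their probes differ, were chosen after their values were seen. The likeness rule took the 5 genes of highest Pearson r. A gene with several probes is given by the brightest tested one.

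Same-numbered arrays of different groups deviated together (r 0.191 to 0.744 over the tested probes, all pairs), a pairing that the labels do not state. The reported fit has no term for the number, and a block for it was run as an alternative. Of the 12 arrays 10 correlated best with one of their own number, but slide 2 holds only replicate 3, so slide and replicate are mixed in this check. With 3 arrays a group the precision is low. The alternatives were quantile normalization, normexp (offset 50) with either normalization, the deposited table, no filter or a stricter one on dim probes, the percentile over bright probes or over spots, only the arrays compared, replicate or slide as a block, each slide alone (slide 2, with 1 array a group, without a test), eBayes with trend and robust, outlier spots kept, all probes of a gene averaged, adjustment over all contrasts, and each array left out.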

Additional observations from a re-analysis of the deposited data

How the results depend on the processing

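Of 60 differences (10 genes, 6 contrasts), 40 were called, and 32 of these kept their direction and their call in every alternative that gave a test, and their direction on slide 2 alone. The other 8 lost the call in at least 1, none of the 40 changed sign (0), and 7 of the 20 differences not called passed the threshold in at least 1. The number of genes higher with pinosylvin than in the control, 5, was 3 in the deposited table, with no filter on dim probes and with quantile normalization, and 3 to 6 with an array left out. The 9 genes higher with pinosylvin than with resveratrol were 5 to 9 with an array left out. The 2 genes lower with resveratrol than in the control were 1 with no filter or with only the arrays compared, 4 with adjustment over all contrasts, and 1 to 4 with an array left out. The deposited table, no filter and only the arrays compared change the number of probes in the adjustment, and the cause of the other changes was not tested. The percentile over spots was the first version, and the percentile over probes was chosen in its place after the data were seen. With the percentile over spots 1 gene (*Lrp4*, 0.21, adjusted p = 0.0387 in a range of 0.0387 to 0.709) was higher with GR24 than with resveratrol, where 0 were. That scaling moved the median of all tested probes between GR24 and the control from 0.03 to 0.13, and the share of higher among called probes between GR24 and resveratrol from 53.4% to 64.1%.

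The replicate block gave 9 genes lower with GR24, 6 higher with pinosylvin and 3 lower with resveratrol than in the control, and 9 higher with pinosylvin than with resveratrol, in fits that called 66.6%, 28.6%, 27.9% and 26.0% of all probes. The calls it changed were *Chrna1* in 2 contrasts, *Dok7* and *Chrng*, each named with its result, and it changed no other. Sign changes were seen only in differences not called. *Chrne* between GR24 and resveratrol (-0.08) was 0.03 with the percentile over spots, 0 with normexp and the 75th percentile, 0.39 on slide 2, 0.08 without GR24 replicate 2 and 0.09 without resveratrol replicate 1 (-0.25 to 0.09 with an array left out). *Chrng* in that contrast (-0.07) was 0.04 with the percentile over spots, 0.01 in the deposited table, 0.01 with normexp and quantile normalization, 0.02 on slide 2 and 0.01 without resveratrol replicate 1 (-0.15 to 0.01 with an array left out). *Chrne* between GR24 and the control was 0.01 on slide 2, and *Chrna1* between resveratrol and the control was 0.07 without control replicate 3 (-0.32 to 0.07 with an array left out). The cause was not tested. *Chrne* has no value under the stricter filter on dim probes. Its spot was 1.99 to 3.27 times its local background.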

Other observations

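Markers of motor neurons, myoblasts and fibroblasts were read as well. Of 5 motor neuron markers, *Chat*, *Slc5a7* and *Isl1* were well above background on no array. The only one tested, *Slc18a3*, the vesicular acetylcholine transporter, was lower with GR24 (-1.43, SE 0.16, adjusted p = 3.14e-05) and did not pass with pinosylvin (-0.34) or resveratrol (-0.45). The summed signal of the 5 probes was 0.775 to 1.07 times the 75th percentile in the control, 0.306 to 0.425 with GR24, 0.597 to 0.799 with pinosylvin and 0.565 to 0.70 with resveratrol.

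Of 4 tested myoblast markers, *Id2* was higher and *Myf5* (-0.88) lower with GR24, and *Pax7* (-0.35) and *Id1* (0.04) did not pass. With pinosylvin *Id1* (-0.77) and *Id2* (-0.33) were lower. With resveratrol 0 of the 4 passed, where 17% of all tested probes passed in either direction. The summed signal of the 5 listed was 6.04 to 6.67 in the control, 4.68 to 4.84 with GR24, 5.30 to 5.75 with pinosylvin and 5.65 to 6.79 with resveratrol. Of 4 tested fibroblast markers, *Thy1* (-0.90), *Lum* (-0.85) and *Col1a1* (-0.81) were lower and *Pdgfra* (0.23) higher with GR24. With pinosylvin *Lum* (0.53) and *Pdgfra* (0.43) were higher and *Thy1* (-0.63) and *Col1a1* (-0.34) lower. With resveratrol *Pdgfra* (0.35) was higher and *Col1a1* (-0.43) lower. Of all tested probes, 57.1% passed in either direction with GR24, 16.6% with pinosylvin and 17% with resveratrol. The summed signal of these 4 was 113 to 122 in the control, 65.0 to 70.0 with GR24, 86.8 to 99.4 with pinosylvin and 85.0 to 94.8 with resveratrol. The part of these markers in the receptor genes' differences was not tested.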
